A study of Mus musculus with 12 samples.

Results

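Hox genes are the homeobox genes that mark position along the body axis, and 39 of them, all those that RefSeq names in the mouse, were represented on the arrays. They were taken as the non-control probes whose gene name was Hox followed by a cluster letter from a to d and a number, which gave 44 probes among 55681 and 39 gene names among 34797. The samples were 12 aortas from male C57BL/6J mice aged 11 to 14 weeks, each hybridised to a 1-colour oligonucleotide array. Each sample was the 10 mm of aorta above the branching of the right renal artery. The time point was day 3, with a doubt for the DMSO group that is given below. Of the 4 groups of 3 mice, DMSO received the vehicle, rapamycin received the mTOR inhibitor rapamycin at 2 mg/kg/day, BA+DMSO received the challenge, β-aminopropionitrile (BAPN, which blocks collagen and elastin cross-linking) at 150 mg/kg/day with angiotensin II (AngII) at 1 µg/kg/min, together with vehicle, and BA+rapamycin received the challenge and rapamycin. The titles of the DMSO arrays begin with Pre, a word that the study uses elsewhere for mice before the challenge. Their treatment label is DMSO, and their grouping here follows that label. The label gives no day, so whether these mice had 3 days of vehicle or none is not settled. The labels name the strain and no other genotype. The tissue was whole aorta, in which fewer cells of a type and less RNA per cell cannot be told apart.

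The Hox genes lie in 4 clusters, A to D, each on its own chromosome, and members with the same number in different clusters are paralogues. Within a cluster the low-numbered genes at the 3′ end are used from anterior levels of the embryo onward and the high-numbered genes at the 5′ end are used posteriorly, a correspondence called colinearity. Adult vessels keep part of this pattern, so that smooth muscle cells and fibroblasts from different stretches of the aorta differ in the Hox genes that they express. Hox proteins bind DNA together with cofactors of the TALE homeobox class, Pbx and Meis, the Polycomb and trithorax complexes hold the clusters silent or active, and retinoic acid is a classical inducer of the 3′ genes.

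The promoters of 4 genes are shown because their genes carry the results, Hoxa7 and Hoxb4 for the challenge and Hoxb8 and Hoxd4 for the difference between rapamycin arrays. They are the RefSeq sequences of GRCm38.p6 from 250 bases before to 50 after the start, 22 of the 39 genes having such an entry in 24 sequences. Capitals mark a match on either strand to TGATNNAT (the paired site of Hox and Pbx), TGACAG (Meis) or AGGTCA (a unit of the sites that nuclear receptors bind, retinoic acid receptors among them).
Hoxa7 promoter, chr6:52218524-52218823, minus strand: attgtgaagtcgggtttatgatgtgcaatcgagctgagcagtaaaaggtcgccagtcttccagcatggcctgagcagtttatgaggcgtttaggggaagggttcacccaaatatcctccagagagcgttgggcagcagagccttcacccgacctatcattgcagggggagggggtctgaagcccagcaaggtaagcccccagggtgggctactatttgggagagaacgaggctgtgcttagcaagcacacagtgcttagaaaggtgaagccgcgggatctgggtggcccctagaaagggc
Hoxb4 promoter, chr11:96318017-96318316, plus strand: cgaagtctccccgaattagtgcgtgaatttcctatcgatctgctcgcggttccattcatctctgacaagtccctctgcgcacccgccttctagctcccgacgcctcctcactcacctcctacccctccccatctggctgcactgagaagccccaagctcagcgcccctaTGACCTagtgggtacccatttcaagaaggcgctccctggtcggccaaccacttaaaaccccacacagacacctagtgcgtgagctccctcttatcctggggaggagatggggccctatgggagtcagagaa
Hoxb8 promoter, chr11:96281655-96281954, plus strand: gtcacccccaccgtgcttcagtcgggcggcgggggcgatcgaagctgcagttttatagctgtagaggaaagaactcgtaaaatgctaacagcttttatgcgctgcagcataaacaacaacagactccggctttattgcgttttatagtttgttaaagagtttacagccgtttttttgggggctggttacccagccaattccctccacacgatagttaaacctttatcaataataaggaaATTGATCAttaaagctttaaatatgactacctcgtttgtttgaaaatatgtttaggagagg
Hoxd4 promoter, chr2:74721728-74722027, plus strand: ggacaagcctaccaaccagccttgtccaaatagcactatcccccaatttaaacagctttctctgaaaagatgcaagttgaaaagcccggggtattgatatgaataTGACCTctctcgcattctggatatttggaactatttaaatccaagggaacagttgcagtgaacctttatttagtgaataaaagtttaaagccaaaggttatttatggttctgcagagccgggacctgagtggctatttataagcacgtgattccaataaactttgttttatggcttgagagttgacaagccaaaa

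TGATNNAT was in 4 of the 24 Hox entries (16.7%) and in 8.85% of all 32851 promoters of 300 bases. AGGTCA was in 7 Hox entries (29.2%) and in 16.3% of all promoters, and TGACAG was in 2 Hox entries (8.33%) and in 19.2% of all. The entries for Hoxb4 and Hoxd4 each held an AGGTCA match, that for Hoxb8 held a TGATNNAT match, and the Hoxa7 window held no match to these letters. No matches overlapped in the printed sequences, which each held at most 1, and a match in such a window is a description of the letters and not a bound site.

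Values are log2 signals relative to the 75th percentile of the array, so 0 is a signal that exceeded 75% of the probes. A probe was called detected on an array where its spots were flagged well above background, and it was tested where it was detected on all 3 arrays of at least 1 group. Between 19 and 23 of the 44 Hox probes were detected per array. Of the 39 genes, 17 were detected on all 12 arrays by at least 1 probe, 6 on some of them and 16 on none. By paralogue number, 5 of the 8 genes numbered 1 to 3 were detected on all arrays, as were 10 of the 12 genes numbered 4 to 7 and 2 of the 10 numbered 8 to 10. Of the 9 genes numbered 11 to 13, which pattern the limb ends and the urogenital tract, 0 were detected on any array.

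**Figure D1:**
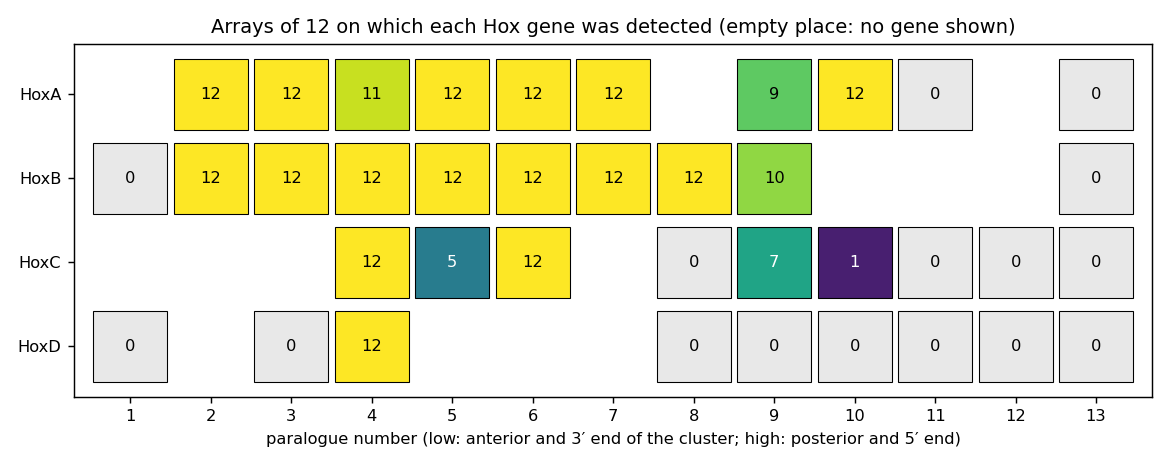
The grid gives, for each cluster (rows) and paralogue number (columns), the number of the 12 arrays on which the gene's best probe was detected, with an empty place where no gene is shown. Detection was nearly continuous over numbers 2 to 9 of clusters A and B, was broken in cluster C and was limited to Hoxd4 in cluster D.

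In the HoxA cluster on chromosome 6, 7 of 11 genes were detected on all arrays. The highest-numbered of them was Hoxa10, a gene of lumbar patterning whose probe lies at chr6:52181922-52181981 (mouse genome build mm9, as for all probes here), and it read -2.93, -2.59 and -2.58 on the DMSO arrays. Hoxa4 was detected on 11 arrays and Hoxa9 on 9. Hoxa11 and Hoxa13 were detected on none, although the Hoxa11 probe was printed in 10 spots per array. The HoxB cluster on chromosome 11 gave 7 of 10 genes on all arrays, from Hoxb2 to Hoxb8. Hoxb9, at chr11:96137748-96137807, was detected on 10 arrays and was the highest-numbered gene of this cluster that was detected at all. Hoxb1, an early hindbrain gene that was also printed in 10 spots, and Hoxb13, the most posterior gene of the cluster, were detected on none.

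The HoxC cluster on chromosome 15 gave 2 of 9 genes on all arrays, Hoxc4 and Hoxc6. Hoxc6, a gene of thoracic levels at chr15:102842243-102842302, was the highest-numbered HoxC gene that was detected on all arrays of a group, at 0.93, 0.94 and 1.01 on the DMSO arrays. Hoxc5, which lies between them, was detected on 5 arrays, all of them from unchallenged mice. Hoxc9 was detected on 7 arrays and Hoxc10 on 1, BA+rapamycin replicate 1, and both stayed below the requirement for testing. In the HoxD cluster on chromosome 2, Hoxd4 at chr2:74566866-74566925 was detected on all 12 arrays and the other 8 genes on none. The 20 Hox probes that were not well above background on any array had medians per array between -6.31 and -4.29, and these medians were higher on the dimmer arrays.

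The arrays differed in brightness with the challenge, which touches each result below. The 75th percentile of the signal was 280, 267 and 221 intensity units on the DMSO arrays and 257, 272 and 337 on the rapamycin arrays. It was 132, 78.1 and 246 on the BA+DMSO arrays and 109, 74.6 and 108 on the BA+rapamycin arrays. The slides also followed the groups in part: slide 1 held the DMSO arrays and rapamycin replicate 1, and slide 2 held the other 8 arrays, so that no slide held both DMSO and BA+DMSO and for that comparison slide and challenge cannot be told apart. Smooth muscle markers were detected on all 12 arrays for 6 of 6 genes, and their summed log2 level lay between 11.5 and 11.6 for DMSO, 11.3 and 12.2 for BA+DMSO, 11.3 and 11.6 for rapamycin, and 11.8 and 12.1 for BA+rapamycin. All 6 adrenal and kidney markers were detected on none.

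The first comparison asked how the Hox genes differed between BA+DMSO and DMSO aortas. Hoxa7, Hoxb4, Hoxb5, Hoxb6 and 1 of the 2 tested Hoxb3 probes were lower after the challenge, by 1.64-fold to 2.10-fold, and no Hox probe was called higher. Thus 5 of the 22 tested Hox probes (22.7%) were called, against 20.5% of all 27801 tested probes, a share near the background. The 5 lower calls were 22.7% of the Hox probes against 10.8% of all probes, and the 0 higher calls stood against 9.65%. The median difference of the 22 probes was -0.48 and that of all probes -0.04, with 16 of the 22 below 0 against 52.9% of all probes. The Hox median ranged from -0.71 to -0.34 with 1 array left out and from -0.71 to 0.39 over all alternatives. Of the 5 called probes, 4 were in the HoxB cluster, which held 9 of the 22 tested probes, and this split was not tested.

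**Figure D2:**
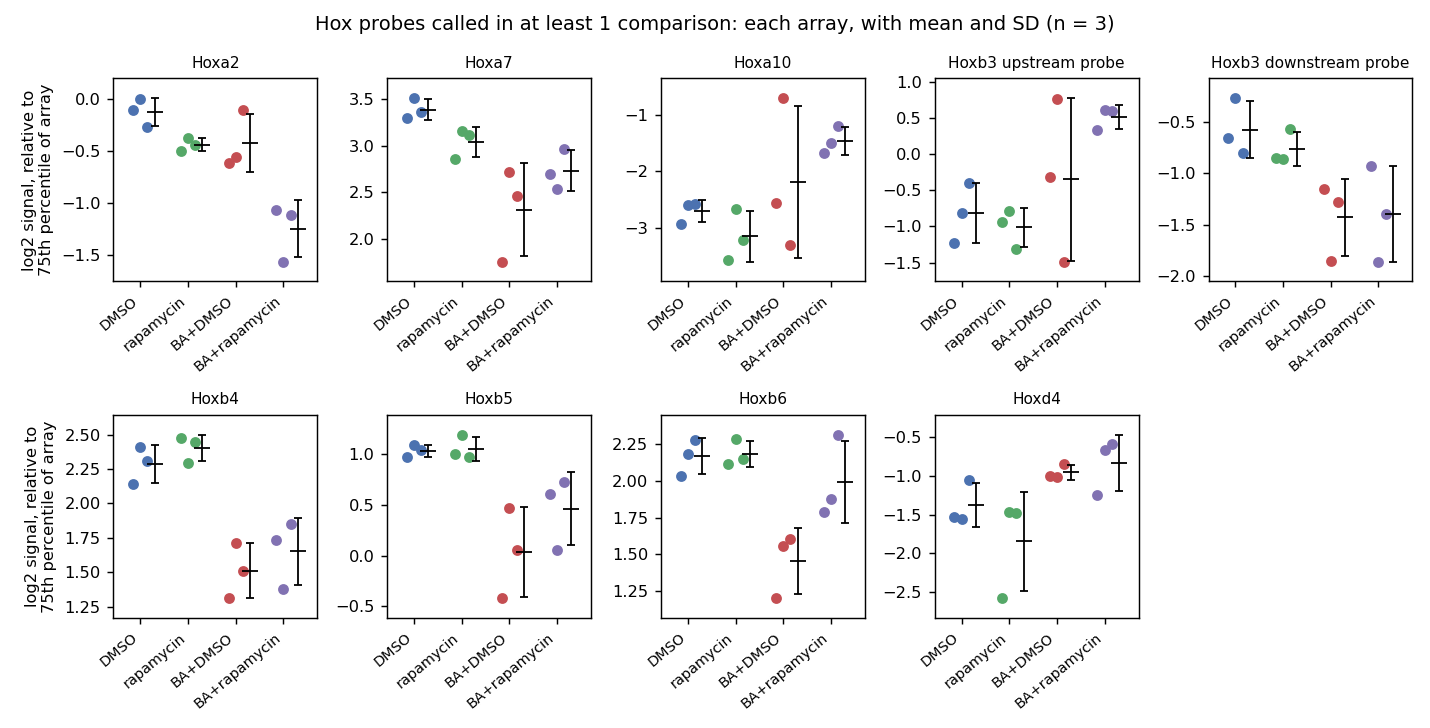
Each panel shows 1 of 9 Hox probes called in at least 1 comparison, with every array as a point (log2 signal relative to the 75th percentile of the array), and the mean and SD of each group (n = 3) as a bar. Hoxa7, Hoxb4, Hoxb5 and Hoxb6 lay lower on all 3 BA+DMSO arrays than on any DMSO array, and Hoxa10 and the upstream probe of Hoxb3 spread widely over the BA+DMSO arrays.

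Hoxa7, whose probe lies at chr6:52165626-52165685 and whose promoter is printed above, read 3.30, 3.51 and 3.36 on the DMSO arrays. On the BA+DMSO arrays it read 1.76, 2.72 and 2.46. The groups did not overlap, with replicate 1 of BA+DMSO the lowest of all 12 arrays. Its mean fell from 3.39 ± 0.11 to 2.31 ± 0.50 (SD, n = 3), a log2 difference of -1.07 (SE 0.24, limma adjusted p = 0.0117). On the rapamycin arrays it was at 2.86, 3.15 and 3.12, and on the BA+rapamycin arrays at 2.70, 2.54 and 2.97. Those groups overlapped.

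Hoxb4, at chr11:96182885-96182944 and known for expanding blood stem cells, read 2.14, 2.41 and 2.31 in DMSO and 1.31, 1.71 and 1.51 in BA+DMSO. Each challenged array lay below every vehicle array. The log2 difference was -0.77 (SE 0.18, limma adjusted p = 0.0137). Hoxb5, which acts in neural crest of the gut and in vessel growth, was at 0.97, 1.09 and 1.04 in DMSO and at -0.42, 0.47 and 0.06 in BA+DMSO. The spread over the challenged arrays (SD 0.45) was larger than over the vehicle arrays (SD 0.06), but the groups did not overlap and the difference was -0.999 (SE 0.24, limma adjusted p = 0.0167). Hoxb6, a trunk-level neighbour of Hoxb5, was at 2.04, 2.19 and 2.28 in DMSO and at 1.20, 1.56 and 1.61 in BA+DMSO, and it fell by 0.71 on the log2 scale (SE 0.19, limma adjusted p = 0.0226).

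Hoxb3, a gene of the hindbrain and pharyngeal arches, had 2 tested probes that differed in call. The probe at chr11:96209002-96209061, named the downstream probe here, read -0.66, -0.27 and -0.80 in DMSO and -1.15, -1.85 and -1.28 in BA+DMSO. It was called lower, with a difference of -0.85 (SE 0.27, limma adjusted p = 0.0463). Over 25 alternatives its difference ranged from -0.99 to -0.39 and the call was lost in 18. The other probe, named the upstream probe, lies nearer the 5′ end of the gene. On this probe Hoxb3 read -1.22, -0.82 and -0.40 in DMSO and -0.31, 0.76 and -1.49 in BA+DMSO. The challenged arrays lay on both sides of the vehicle arrays, and the difference was 0.47 (SE 0.45, limma adjusted p = 0.49). No statement about the gene as a whole can be taken from 1 of these probes alone.

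Hoxa2 was not called in this comparison, and neither was Hoxb2, which was at 1.36, 0.37 and 1.80 in BA+DMSO against 1.94, 2.18 and 1.83 in DMSO (difference -0.81, SE 0.30, limma adjusted p = 0.078). The high-numbered genes of each cluster were not called. Hoxb9 was at -2.06, -1.78 and -1.78 in DMSO and at -2.74, -3.32 and -2.03 in BA+DMSO, where it was detected on 2 of 3 arrays, with a difference of -0.82 (SE 0.57, 95% interval -2.09 to 0.44). Hoxc6 was at 0.48, -0.14 and 1.06 in BA+DMSO (difference -0.50, 95% interval -1.07 to 0.08). Hoxd4 was at -1.53, -1.56 and -1.05 in DMSO and at -1.003, -1.01 and -0.84 in BA+DMSO (difference 0.43, 95% interval -0.24 to 1.102). Hoxa10 was at -2.56, -0.70 and -3.31 in BA+DMSO, so that the dimmest array held its highest value and the brightest its lowest. Hoxa6 spread in the same order, at -1.38, 0.32 and -3.30 in BA+DMSO against -2.76, -1.73 and -1.44 in DMSO. The other tested probes, for Hoxa3, Hoxa4, Hoxa5, Hoxa9, Hoxb7, Hoxc4 and Hoxc5, had differences between -0.80 and 0.29 and adjusted p values of 0.0623 (Hoxa5, at -0.53) and above. Hoxc5 was not well above background on any challenged array, so its difference has no fold.

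**Figure D3:**
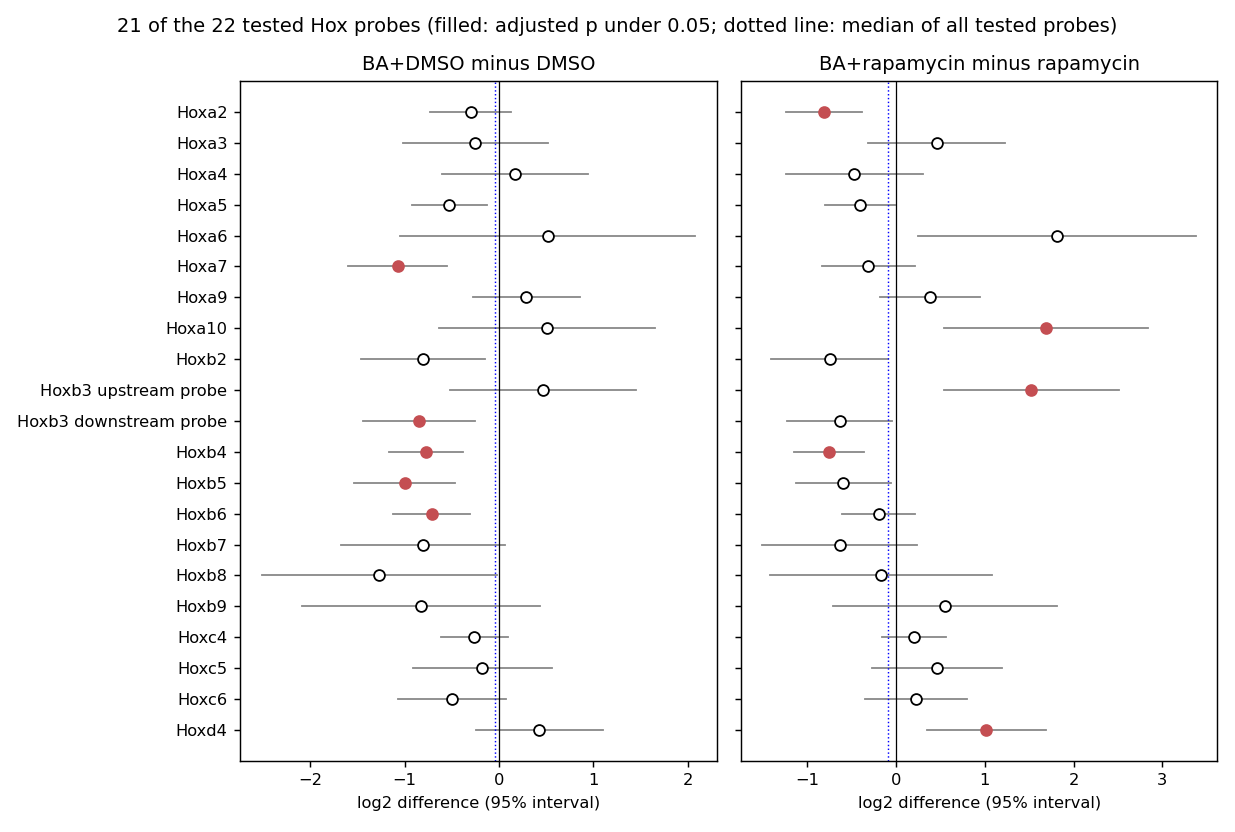
Log2 differences of 21 of the 22 tested Hox probes with 95% intervals (horizontal bars), for the challenge under vehicle (left) and under rapamycin (right), ordered by cluster and paralogue number. Filled points passed an adjusted p of 0.05 and the dotted line is the median of all tested probes, -0.04 on the left and -0.08 on the right.

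The calls depended on the test and on single arrays. In the fit with only DMSO and BA+DMSO, 0 of these 5 probes were called (Hoxa7 at adjusted p = 0.0869), when 4.47% of all tested probes were called, and with array weights 0 were called, when 0.403% of all were. With slide as a fixed block 1 Hox probe was called, when 0.054% of all were, and with array brightness as a covariate 3 were (18.3% of all). Without BA+DMSO replicate 3, the brightest challenged array, 12 Hox probes were called, 10 lower and 2 higher, with 38% of all tested probes. Without DMSO replicate 2 the count was 0 (7.38% of all), and without DMSO replicate 3 or BA+DMSO replicate 1 it was 2 (11% and 11.2%). The difference of each of the 5 stayed below 0 in every alternative that was run.

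The second comparison asked the same of mice that also received rapamycin, BA+rapamycin against rapamycin. Hoxa2 and Hoxb4 were lower after the challenge, by 1.75-fold and 1.68-fold, and Hoxa10, Hoxd4 and the upstream probe of Hoxb3 were higher, by 2.03-fold to 3.23-fold. In all, 6 of 22 Hox probes (27.3%) were called, against 41.7% of all tested probes. The 3 lower calls (13.6%), of which 1 is not described, stood against 22.9% of all probes and the 3 higher calls (13.6%) against 18.9%, and no difference between these shares was tested. The median difference was -0.18 for the Hox probes and -0.08 for all probes. This Hox median ranged from -0.31 to 0.0084 with 1 array left out and from -0.31 to 1.09 over all alternatives.

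Hoxb4 read 2.47, 2.30 and 2.44 on the rapamycin arrays and 1.73, 1.38 and 1.85 on the BA+rapamycin arrays. It was called lower in this comparison as in the first, with a difference of -0.75 (SE 0.18, limma adjusted p = 0.00865). The group means of the first comparison come from other arrays, but both calls use the same estimate of the spread over all 12 arrays. Hoxa2, a gene of the hindbrain and of neural crest, was at -0.50, -0.38 and -0.44 in rapamycin and at -1.07, -1.57 and -1.11 in BA+rapamycin. The 3 BA+rapamycin arrays were the lowest of all 12 for Hoxa2, and the difference was -0.81 (SE 0.19, limma adjusted p = 0.00896).

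Hoxa10 read -3.57, -2.67 and -3.21 on the rapamycin arrays and -1.68, -1.50 and -1.20 on the BA+rapamycin arrays. The groups did not overlap, and the difference was 1.69 (SE 0.52, limma adjusted p = 0.0249). Hoxd4, a gene of cervical levels, was at -2.59, -1.47 and -1.48 in rapamycin and at -1.24, -0.66 and -0.58 in BA+rapamycin, a difference of 1.02 (SE 0.31, limma adjusted p = 0.0224). The upstream probe of Hoxb3 was at -0.94, -0.78 and -1.31 in rapamycin and at 0.33, 0.61 and 0.60 in BA+rapamycin (difference 1.52, SE 0.45, limma adjusted p = 0.0209). Its downstream probe was at -0.84, -0.86 and -0.57 in rapamycin and at -0.92, -1.86 and -1.40 in BA+rapamycin (difference -0.63, SE 0.27, limma adjusted p = 0.078). Hoxa6 was at -2.21, -2.03 and -2.99 in rapamycin and at -0.60, -0.69 and -0.50 in BA+rapamycin, without overlap, and was not called (difference 1.81, SE 0.71, limma adjusted p = 0.06). Both probes of Hoxb3 thus lay on opposite sides of 0 in both comparisons, with the upstream probe above 0 and the downstream probe below.

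None of the 3 higher calls was kept when brightness entered the fit or when rapamycin replicate 1 was left out. With the log2 brightness of the array as a covariate, the differences of Hoxa10 and of the Hoxb3 upstream probe were -0.28 and -0.45 and that of Hoxd4 was 1.13 (adjusted p = 0.247), and Hoxa2 at -0.26 (adjusted p = 0.556) and Hoxb4 at -0.77 (adjusted p = 0.147) were not called either. Without rapamycin replicate 1 the difference of Hoxd4 was 0.65 (limma adjusted p = 0.0731), that of Hoxa10 was 1.48 (limma adjusted p = 0.0826) and that of the Hoxb3 upstream probe was 1.56 (limma adjusted p = 0.0504). In that fit 3 Hox probes were called, all lower, against 28.5% of all tested probes. The count was also 3 without rapamycin replicate 3 or BA+rapamycin replicate 3 (23.5% and 28.6% of all probes), 2 without BA+rapamycin replicate 2 (28.3%) and 11 without BA+DMSO replicate 2 (56.9%), an array that enters this comparison through the common estimate of the spread. Within slide 2, where BA+rapamycin stood against rapamycin replicates 2 and 3, the differences of the 5 probes described kept their signs and 0 Hox probes were called, against 11.8% of all tested probes.

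The base composition of the probes moved with both challenge comparisons. Over all tested probes with a GC content of at most 35%, the median difference was -0.34 after the challenge and -0.46 under rapamycin, and over those above 50% it was 0.28 and 0.39. The tested Hox probes had a median GC content of 38.3%, against 43.3% for all, and ranged from 30% for the downstream probe of Hoxb3 to 55% for Hoxa6 and Hoxb6. The 6 Hox probes of at most 35% had a median difference of -0.51 after the challenge and the 7 above 35% and up to 40% had -0.80, against -0.16 for all probes of that range, whereas the 6 above 40% and up to 45% had 0.23 against -0.01 for all. Under rapamycin these Hox medians were -0.09, -0.63 and 0.11 in the same order, against -0.46, -0.25 and -0.02 for all. When the GC trend of each array was removed, an alternative chosen after the data were seen, Hoxa7 (-0.83), Hoxb5 (-1.03) and Hoxb6 (-0.985) were called in the challenge and Hoxb4 (-0.47, adjusted p = 0.12) and the downstream probe of Hoxb3 (-0.41, adjusted p = 0.233) were not, when 18.3% of all tested probes were called. In the challenge under rapamycin that alternative called 8 Hox probes, 3 lower and 5 higher, and 37.4% of all tested probes.

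**Figure D4:**
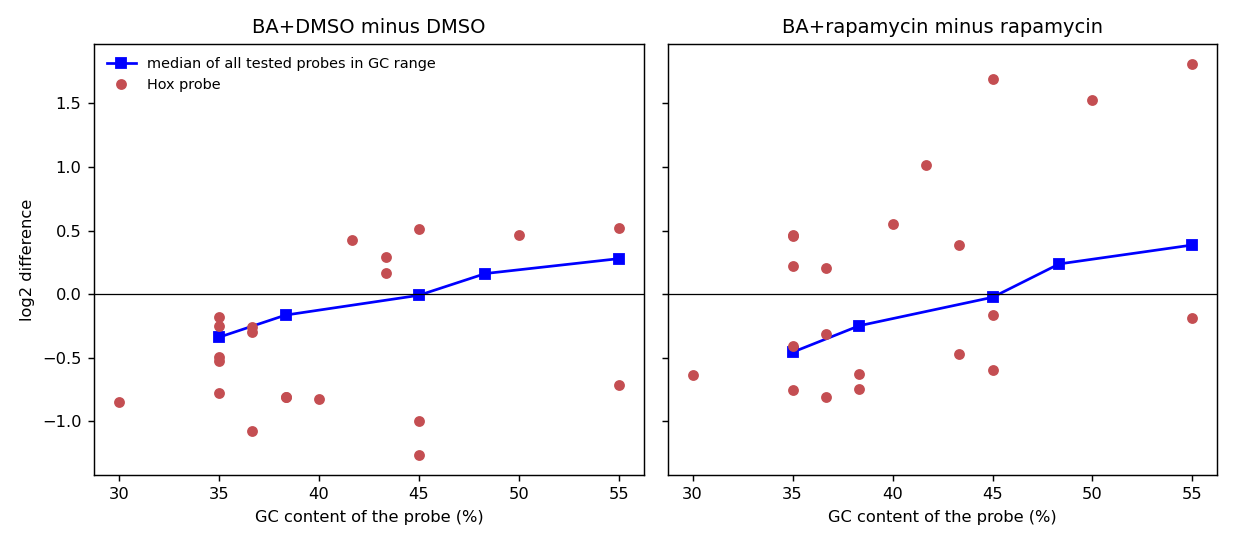
Log2 difference of 21 tested Hox probes (red points) against the GC content of the probe, with the median of all tested probes in 5 ranges of GC content (blue squares at the median GC of the range). The blue medians went from -0.34 to 0.28 on the left and from -0.46 to 0.39 on the right, and the Hox points lay on both sides of them.

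Rapamycin itself was compared with vehicle in challenged and in unchallenged mice. In BA+rapamycin against BA+DMSO, 0 of 22 Hox probes were called by limma, against 0.281% of all probes, and 2 had an unadjusted p under 0.05, as had 20.1% of all probes. Hoxa2 was at -1.07, -1.57 and -1.11 with rapamycin and at -0.62, -0.56 and -0.11 with vehicle (difference -0.82, SE 0.19, limma adjusted p = 0.0918). Hoxb6 was at 1.79, 1.88 and 2.31 against 1.20, 1.56 and 1.61 (difference 0.54, SE 0.19, limma adjusted p = 0.177), and the upstream probe of Hoxb3 was at 0.33, 0.61 and 0.60 against -0.31, 0.76 and -1.49 (difference 0.86, limma adjusted p = 0.287). For Hoxa2 and Hoxb6 the groups did not overlap, whereas for this Hoxb3 probe they did. The median difference of the Hox probes was 0.24, with 16 of 22 above 0, and that of all probes was -0.01, with 50.7% below 0. With 1 array left out the Hox median ranged from 0.13 to 0.30. Without BA+DMSO replicate 2, the dimmest array of its group, 9 Hox probes were called, 2 lower and 7 higher, when 39.9% of all tested probes were called too.

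In rapamycin against DMSO, 0 Hox probes were called by limma, as against 0.0036% of all probes, and 1 had an unadjusted p under 0.05, as had 4.27% of all probes. The median difference of the Hox probes was -0.23, with 17 of 22 below 0 against 51% of all probes. With 1 array left out this median ranged from -0.27 to -0.12. The 1 Hox probe with an unadjusted p under 0.05 also lay below 0. This was Hoxc4, at -1.48, -1.08 and -1.27 with rapamycin and at -0.86, -0.75 and -1.06 with vehicle (difference -0.38, SE 0.16, limma adjusted p = 1). Hoxa2 differed by -0.31 (95% interval -0.74 to 0.12) and Hoxb8 by -0.94 (95% interval -2.19 to 0.31), the latter set by 1 array as given below. Within the title date that DMSO replicates 2 and 3 share with rapamycin replicates 2 and 3, an alternative chosen after the data were seen, Hoxc4 differed by -0.27 (limma adjusted p = 0.6) and 0 Hox probes were called. With array weights Hoxc4 was called at -0.45 (adjusted p = 0.0469), as were 5.44% of all tested probes.

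The test of whether the challenge acted differently with and without rapamycin, an interaction term, called 0 Hox probes and 0% of all probes, with 1 Hox probe and 6.12% of all probes at an unadjusted p under 0.05. The median of the term was 0.49 for the Hox probes, with 19 of 22 above 0, and -0.03 for all probes. The term uses the same arrays as the comparisons above. That probe was Hoxa7, for which the difference under rapamycin was 0.76 higher than under vehicle (SE 0.34, limma adjusted p = 0.737). Hoxc4 (0.46) and Hoxb6 (0.52) followed, both at an adjusted p of 0.737. Without BA+DMSO replicate 2 the term called 1 Hox probe and 11% of all tested probes. Calls made in 1 challenge comparison and not in the other are therefore not shown to differ between them.

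The spread between arrays of a group was set beside that of all probes. The median SD of the tested Hox probes within a group was 0.15 over the DMSO arrays and 0.45 over the BA+DMSO arrays, against 0.16 and 0.50 for all tested probes, and it was 0.22 over rapamycin and 0.24 over BA+rapamycin, against 0.17 and 0.22. The Hox probe with the highest SD was Hoxb8 in rapamycin (1.52), Hoxb9 in BA+rapamycin (1.29) and Hoxa6 in DMSO (0.69) and BA+DMSO (1.81). Hoxb9 was detected on only 2 of the 3 BA+rapamycin arrays, so its SD includes a value not well above background.

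In rapamycin replicate 1, Hoxb8, Hoxb9 and Hoxd4 stood apart from the other rapamycin arrays. Hoxb8, at chr11:96146576-96146635, is a trunk-level gene that was named here after its values were seen. It read -2.58 on that array and 0.22 and -0.16 on replicates 2 and 3, and 0.23, -0.01 and 0.09 on the DMSO arrays. The replicate lay 2.61 below the mean of the other two, and only 2 of the 27801 tested probes had a lower such difference. It was also lower than the 6 challenged arrays, which lay between -1.52 and -0.70. Hoxb9 was at -3.23 on the same array against -1.96 and -2.14, a difference of -1.18 that 93 tested probes exceeded downward. Hoxd4 was at -2.59 against -1.47 and -1.48 (-1.11, with 117 probes lower) and Hoxa10 at -3.57 against -2.67 and -3.21 (-0.63). Hoxc9, which was not tested, was at -3.03 and -3.13 on replicates 2 and 3 and was not well above background on replicate 1.

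**Figure D5:**
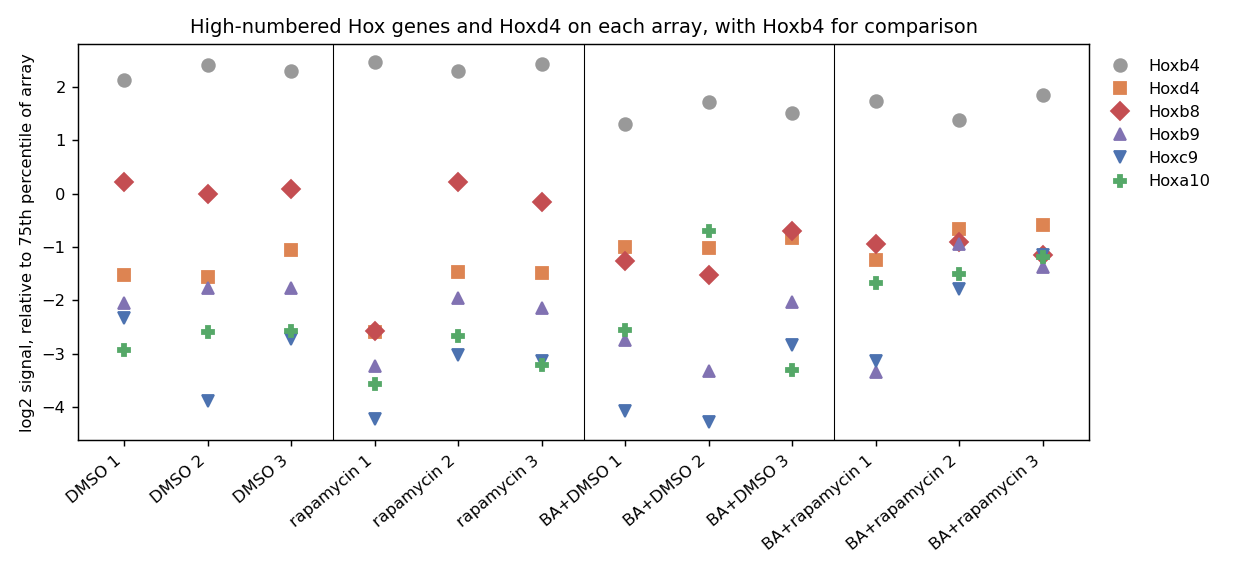
Log2 signal relative to the 75th percentile of the array for 5 Hox genes and for Hoxb4 on each of the 12 arrays, with vertical lines between groups. Hoxb8 was lowest on rapamycin 1 at -2.58, where Hoxb4 read 2.47, and the heights of different genes are not comparable because each comes from its own probe.

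Over the 22 tested Hox probes that array lay below the mean of the other rapamycin arrays for 17, against 53.1% of all tested probes, with a median difference of -0.14 against -0.02. Smaller differences in the same direction were those of Hoxb7 (-0.41), Hoxc4 (-0.30, also its lowest of the 12 arrays), Hoxa7 (-0.28) and Hoxa3 (-0.22). Hoxc5 was not well above background on that array, so its difference is not given. Other genes of the middle numbers lay closer. Hoxb4 was at 2.47 there against 2.30 and 2.44, Hoxb5 at 1.00 against 1.19 and 0.97, Hoxa5 at -0.25 against -0.09 and -0.17, and Hoxb6 lay 0.10 below the mean of the other arrays. Hoxa9 went the other way, at -2.56 against -3.09 and -3.31, and Hoxa6 lay 0.30 above the mean of the other arrays, which themselves differed by 0.97. For the 10 lists of cell type markers, the summed log2 level on replicate 1 differed from the mean of the other arrays by between -0.36 (lymphocyte) and 0.07 (endothelial), and for the other patterning factors of the vessel wall it differed by -0.01. The array was the one rapamycin array on slide 1 and had a title date of its own, and the part of slide and date in these values was not tested. Left out of the fit, it changed the challenge comparison under rapamycin for Hoxb8 from -0.17 (limma adjusted p = 0.827) to -1.04 (SE 0.26, limma adjusted p = 0.0187), and the rapamycin difference for Hoxb8 from -0.94 to -0.07. The challenge difference under vehicle, which does not use that array but shares its estimate of the spread, was -1.27 for Hoxb8 in both fits, with SE 0.57 and limma adjusted p = 0.136 with the array and SE 0.23 and limma adjusted p = 0.007 without it. In either fit the 3 BA+DMSO arrays (-1.27, -1.52 and -0.70) lay below the 3 DMSO arrays.

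Among challenged mice, Hoxb9 and Hoxc9 also varied from array to array. Hoxb9 was at -3.35, -0.94 and -1.37 in BA+rapamycin, and its 3 BA+DMSO values, given above, spanned -3.32 to -2.03. Hoxc9 was at -3.13, -1.80 and -1.15 in BA+rapamycin and at -4.07, -4.29 and -2.85 in BA+DMSO, and in DMSO at -2.34, -3.89 and -2.73. On some of these arrays the probes were not well above background, Hoxb9 on 1 of the 3 and Hoxc9 on 2 of the 3 BA+DMSO arrays among them, so the order of such values is not read. Hoxc10, on the other hand, was highest on BA+rapamycin replicate 1, at -2.05, the one array where it was detected.

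The genes that act with the Hox proteins were described from a list of 11 TALE genes, 9 of them tested by 16 probes. After the challenge 4 probes were lower and 2 higher, 37.5% called against 20.5% of all tested probes, and under rapamycin 7 were lower and 3 higher, 62.5% against 41.7%. No difference between such shares was tested. Meis1, a cofactor that binds beside Hox and Pbx, fell by 0.96 on the log2 scale after the challenge (SE 0.18, limma adjusted p = 0.0051) and by 0.85 under rapamycin. Meis3 was called higher on 1 of its 3 probes, at 0.83. The median over the 16 probes was -0.19 after the challenge and -0.25 under rapamycin.

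Among Polycomb and trithorax regulators, 39 probes were tested, of which 10 were lower and 2 higher after the challenge and 11 lower and 6 higher under rapamycin. These were 30.8% and 43.6% called, against 20.5% and 41.7% of all tested probes. Ezh1 and Ezh2, the alternative enzymes that place the silencing mark of Polycomb, moved in opposite directions after the challenge, with 3 of the 4 Ezh1 probes called, at -0.97 and -0.98 for those detected on all 12 arrays, and Ezh2 at 1.28 (SE 0.31). Phc3, a subunit of the other Polycomb complex, was called lower on 2 of its 3 probes, at -0.85 on the one detected on all 12 arrays, whereas the other was detected on 6 arrays and is given no difference. Of the retinoic acid and axial inputs, 20 probes were tested, with 1 lower and 4 higher after the challenge and 4 in each direction under rapamycin, which were 25% and 40% called and lay near the shares of all tested probes. Aldh1a2, an enzyme that makes retinoic acid, rose by 2.24 on the log2 scale after the challenge (SE 0.29) and by 1.61 under rapamycin, Crabp2, which carries retinoic acid to the nucleus, rose by 1.61 and 2.52, and Rarb, a receptor and target of it, was called lower on 1 of its 3 probes, at -1.36 and -1.69. The other Rarb probes were not called, at -0.35 and 0.99 after the challenge (limma adjusted p = 0.559 and 0.511). Aldh1a1, on the same list as Aldh1a2, rose by 1.34 after the challenge (limma adjusted p = 0.0197). Under rapamycin it lay at -0.63 and was not called (limma adjusted p = 0.15). Cdx1, Cdx2 and Cdx4, embryonic inducers of the trunk Hox genes, and Cyp26a1, which degrades retinoic acid, were detected on 0 of 12 arrays. Cyp26b1, another enzyme that degrades it, was detected on all 12, at -0.46 after the challenge (limma adjusted p = 0.215) and -1.66 under rapamycin (limma adjusted p = 0.00117).

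Other patterning factors of the vessel wall had 23 tested probes, 4 lower and 2 higher after the challenge (26.1% called, against 20.5% of all tested probes). Under rapamycin 5 were lower and 3 higher (34.8% called, against 41.7% of all tested probes). After the challenge under vehicle Foxf1a fell by 2.14 on the log2 scale (SE 0.26) and Tbx18 by 1.43, and Meox1 rose by 2.33 (SE 0.40). Of the non-coding transcripts of the clusters on the list, 1 was on the array, Hoxa11as, the antisense transcript at Hoxa11. It was detected on 7 arrays, at -2.72, -2.72 and -2.95 in DMSO, although Hoxa11 itself was detected on none, and it was not called in any of these comparisons (challenge difference 0.07, SE 0.38).

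Markers of other cells were also called in the challenge comparisons, and their part in the Hox values was not tested. The counts below stand against 9.65% of all tested probes called higher and 10.8% called lower after the challenge. Of the 9 tested macrophage probes 8 were higher after the challenge, and the summed log2 level of the 6 genes went from 4.36 to 5.15 for DMSO and from 5.95 to 7.06 for BA+DMSO, and from 5.01 to 5.31 for rapamycin and 6.43 to 6.50 for BA+rapamycin. Of the 6 mesothelial markers 5 were higher in BA+DMSO, with sums between -0.82 and 1.77 for DMSO, 2.77 and 3.89 for BA+DMSO, 1.31 and 2.02 for rapamycin, and 0.63 and 3.57 for BA+rapamycin. All markers of both lists were detected on at least 1 array. After the challenge 3 of 8 endothelial, 2 of 4 lymphocyte, 1 of 8 fibroblast and 1 of 6 adipocyte probes were called higher, 1 of 7 smooth muscle probes (Lmod1) was called lower, and of 4 striated muscle and 3 nerve and glia probes 0 were called. In the challenge under rapamycin 5 of the 9 macrophage probes were higher and 0 of the 6 mesothelial probes were called. Of 7 smooth muscle probes 1 was lower and 2 higher there, and of 8 endothelial probes 2 were lower and 3 higher. These counts stand against 18.9% of all tested probes called higher and 22.9% called lower under rapamycin.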

How the data were processed

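Total RNA of 12 aortas was labelled and hybridised by the authors to 1-colour Agilent arrays of 62976 spots, 3671 of them controls. The deposited intensity values were the processed signals of Agilent Feature Extraction, background-subtracted and detrended, with surrogate values for dim spots. The submitters' processing notes name version 9.5.1.1 and the file headers version 10.7.1.1. Here flagged outlier spots were left out, the spots of a probe averaged, log2 taken and the 75th percentile of each array subtracted. A probe was detected where at least 0.5 of its spots were well above background, and 27801 of 55681 probes were tested (6 were dropped for missing values). All 4 groups were fitted in 1 model with limma 3.58.1 in R 4.3.3, on 8 residual and 3.02 prior degrees of freedom, with Benjamini-Hochberg adjustment over all tested probes and a threshold of 0.05. The script was tested on simulated data. The number of arrays limits the precision, and the comparisons share groups. With 1 array per mouse, p-values rest on the spread between arrays of a group, in which mouse, slide, title date and brightness are not separated. Replicates were numbered in accession order.

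The Hox genes and gene lists were chosen with earlier results of these data known. Values are given for each called Hox probe, the highest-numbered detected gene of each cluster, the 3 smallest p where fewer than 3 probes were called, and genes whose probes differed in call. Some genes and a probe sequence are not reported here, although counts include them. The authors' value table, which matched a quantile normalization, normexp background, other filters, slide and date blocks, array weights, a brightness covariate, an array left out and GC trend removal were alternatives.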

Additional observations from a re-analysis of the deposited data

How the results depend on the processing

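Of 712 values of named Hox probes under the alternatives, 620 kept their direction and side of the threshold, 67 were no longer called, 13 became called and 12 changed sign. Percentages in parentheses are the share of all tested probes called in the same fit. The count of called Hox probes, 5 in the challenge (20.5%) and 6 in the challenge under rapamycin (41.7%), was 0 in both at an unadjusted p under 0.01 with a fold change over 4 or under 0.25 (2.51% and 5.14%). In the challenge it was 2 with no filter on dim probes (7.65%), 1 with slide as a fixed block (0.054%), 0 with only the groups compared (4.47%), 0 with array weights (0.403%), 3 with the brightness covariate (18.3%) and 3 with the GC trend removed (18.3%). In the challenge under rapamycin it was 14 with normexp (62.4%), 25 of 44 with no filter (53.3%, where undetected probes sit at a floor that was higher on dim arrays), 3 with slide as a fixed block (28.5%), 0 on slide 2 alone (11.8%), 11 with only the groups compared (56.4%), 13 with array weights (65.7%) and 2 with the brightness covariate (6.42%). For rapamycin alone it was 1 with array weights (5.44%). With 1 array left out, the count ranged from 0 to 12 in the challenge (7.38% to 38%), 0 to 9 for rapamycin under challenge (0.108% to 39.9%), 2 to 11 for the challenge under rapamycin (23.5% to 56.9%) and 0 to 1 for the interaction (0% to 11%).

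Sign changes in the challenge were Hoxb9 at 0.083 with normexp, Hoxa10 at -0.12 and Hoxd4 at -0.68 with slide as a fixed block, and Hoxa10 at -0.61, Hoxc6 at 0.036 and the Hoxb3 upstream probe at -0.66 with the brightness covariate. Under rapamycin they were Hoxc6 at -0.0081 with normexp, and Hoxa10 at -0.28, the Hoxb3 upstream probe at -0.45 and the downstream probe at 0.13 with the brightness covariate. With 1 array left out the challenge difference ranged from -0.23 to 1.07 for Hoxa10 and from -0.087 to 1.04 for the Hoxb3 upstream probe. With slide as a fixed block the slide term came from rapamycin replicate 1 against replicates 2 and 3 alone, so each such challenge value is the difference of the report plus the gap of that array (-0.63 for Hoxa10 and -1.11 for Hoxd4), in which array and slide cannot be told apart. For the challenge under rapamycin, the fit with slide as a fixed block matched the fit without rapamycin replicate 1, with 7923 probes called in each. For that comparison they are therefore not separate alternatives, although both are counted above. The cause of the changes with normexp and brightness was not tested. With the flag for positive and significant signal in place of well above background, the median number of Hox probes detected per array was 31 rather than 22. No paired analysis was possible because the numbers in the titles count mice within a date and recur within a group. Title dates crossed the groups in part: DMSO replicates 2 and 3 share one with rapamycin replicates 2 and 3, DMSO replicate 1 with BA+rapamycin replicate 3, and BA+rapamycin replicate 1 with BA+DMSO replicate 1. The titles of BA+DMSO replicates 2 and 3 hold no date, and each was given a level of its own. With title date as a random block (consensus correlation 0.50) the count was 4 in the challenge (19.1%) and 7 in the challenge under rapamycin (40%). Probes near background, such as Hoxc5, Hoxc9 and Hoxa9, have limited precision.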

Other observations

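The array on which Hoxb8 was lowest, rapamycin replicate 1, also stood apart from the other rapamycin arrays in 4 of 5 genes of the circadian clock, which were picked by hand after the Hox values were seen. Dbp, a clock output factor, was at 2.81 there against 5.55 and 5.34 on the other rapamycin arrays on 1 probe and at 2.90 against 5.26 and 5.10 on another. Nr1d1, a clock repressor, was at 0.82 against 2.94 and 2.80. Arntl, the activator of the clock, was at 1.98 against 0.68 and 0.80. Nfil3, which opposes Dbp on shared sites, was at 4.205 against 1.93 and 2.15. Per2 was at -0.09 against -0.45 and 0.12. For Dbp and Nr1d1 rapamycin replicate 1 was not the lowest of the 12 arrays, so at least 1 array of another group lay lower. These are values of 1 array against 2, with no test.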
